A study of Mus musculus with 4 samples.

Results

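The genes of the heterotrimeric G proteins and of the RGS (regulator of G protein signalling) family were examined in RNA sequencing libraries of naive mouse microglia, the resident macrophages of the brain. They were chosen by symbol alone, as every row named for a G alpha, G beta, G gamma or numbered Rgs gene. This gave 59 of 56832 gene rows. By family they were 16 G alpha, 5 G beta, 12 G gamma and 21 RGS genes, 2 genes for proteins that bind the R7 class of RGS proteins, an antisense transcript and 2 pseudogenes. The study compared brain myeloid cells derived from grafted blood stem cells with the brain's own microglia. Only the microglia, 1 group of 4 libraries from female C57BL/6 mice with no intervention, were analysed here, and the age of the mice is not given in the sources used here. These cells came from littermates without a transplant and were sorted through the conventional gate of low to intermediate CD45 with CD11b. The labels do not tie the libraries to separate animals.

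A heterotrimeric G protein consists of a G alpha subunit, which binds GDP or GTP, and a G beta and G gamma dimer. An activated receptor exchanges GDP for GTP on G alpha, and G alpha and the dimer then act on effectors. The Gi/o family inhibits adenylyl cyclase, the Gs family stimulates it, the Gq/11 family activates phospholipase C beta and the G12/13 family acts on the cytoskeleton. RGS proteins speed up the hydrolysis of GTP by G alpha and so end the signal. Microglia use such receptors to sense nucleotides, chemokines and lipids, and the ADP receptor P2ry12 and the chemokine receptor Cx3cr1 are among their best known markers.

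Levels were measured as CPM, in which the reads of a gene are scaled by the library's total over all genes, and the order of genes was read after division by the length of their exons in kb. Plain CPM also grow with transcript length, so counts of genes past a CPM level and shares by counts carry that length. The highest mean levels per kb of exon were those of Rgs10 at 461 ± 110 CPM per kb, Gna15 at 180 ± 36.5 and Rgs2 at 178 ± 58.9 (SD, n = 4). The promoters of these 3 genes are shown because they start the most abundant transcripts per kb. They were taken from RefSeq on GRCm38.p6, from 250 bases before to 50 bases after the start, and the authors' reads were aligned to another build. Capitals mark matches to the motifs searched. Rgs10 lies on chr7:128418123-128418422, Rgs2 on chr1:144004100-144004399 and Gna15 on chr10:81524176-81524475, each on the minus strand.
Rgs10: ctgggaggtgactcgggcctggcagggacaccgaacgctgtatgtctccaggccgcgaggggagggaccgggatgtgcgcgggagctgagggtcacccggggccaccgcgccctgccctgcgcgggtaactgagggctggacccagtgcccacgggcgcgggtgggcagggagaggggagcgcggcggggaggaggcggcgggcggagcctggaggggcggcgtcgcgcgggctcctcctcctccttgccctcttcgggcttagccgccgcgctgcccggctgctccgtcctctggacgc
Rgs2: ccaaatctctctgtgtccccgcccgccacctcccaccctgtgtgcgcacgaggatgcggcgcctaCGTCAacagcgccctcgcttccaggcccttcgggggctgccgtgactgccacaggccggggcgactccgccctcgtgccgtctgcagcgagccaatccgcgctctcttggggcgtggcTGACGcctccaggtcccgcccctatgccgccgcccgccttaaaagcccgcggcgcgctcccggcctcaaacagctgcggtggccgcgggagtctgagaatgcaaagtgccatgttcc
Gna15: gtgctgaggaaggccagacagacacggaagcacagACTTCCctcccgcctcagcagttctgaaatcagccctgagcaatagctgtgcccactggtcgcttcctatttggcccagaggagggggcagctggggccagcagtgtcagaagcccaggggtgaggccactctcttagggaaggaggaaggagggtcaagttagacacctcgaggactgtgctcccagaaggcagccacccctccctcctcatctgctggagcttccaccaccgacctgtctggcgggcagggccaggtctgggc

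The Rgs10 window had a GC content of 76% and held no match to any motif searched. The Rgs2 window, at 70% GC, held TGACG, the core of the cAMP response element, at 2 places, -185 and -67 bases from the start, the first of them on the other strand as CGTCA. The Gna15 window, at 62.3% GC, held GGAAGT, the core bound by the myeloid factor PU.1, on the other strand -215 bases from the start. Such matches are common. Over both strands TGACG occurred in 20.8% of 32851 mouse promoters of the same 300 bases and in 14 of 54 promoters of G protein and RGS genes, and GGAAGT in 23.8% and in 8 of 54. The AP-1 motif TGANTCA occurred in 7.81% of all promoters and in 4 of the 54, the TATA motif TATAAA in 13.6% and 9, the NF-kappa-B motif in 4.51% and 4, and the serum response factor motif CArG in 1.63% and 0. The median GC content was 61.5% over the 54 promoters and 52.7% over all.

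The libraries held 20360121 to 23292655 reads assigned to genes, so that 0 counts are compatible with levels up to the floor of 3 counts, 0.129 to 0.147 CPM. A gene at 1 CPM or more in each of the 4 libraries is called detected here. All 10 microglia markers listed were detected, with summed levels of 57901, 30921, 32006 and 60993 CPM in replicates 1 to 4. Replicates 2 and 3 held 18978 and 18431 genes with a count, and replicates 1 and 4 held 14850 and 13944. No 2 libraries agreed within sampling noise, with a chi-square per gene of 52.0 between replicates 2 and 3, the closest pair. Floors and intervals cover only the error of counting, since amplified reads were not collapsed to molecules by identifiers.

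Of the 59 genes, 47 had a count in at least 1 library, against 38.1% of all gene rows. Detected were 23 of the 59, against 14.8% of all gene rows. Of the 47 with a count these were 23, against 38.8% of all genes with a count. At 10 CPM or more in every library stood 20 of the 47, against 26.4% of all genes with a count. At 100 CPM or more stood 10 of the 47, against 5.28%. Those 10 were Rgs10, Rgs2, Rgs1, Gna15, Gnb1, Gnb2, Rgs19, Gngt2, Gnai2 and Gng5. The whole group took between 0.422% and 0.445% of the counts of a library. In a bulk sample, fewer cells of a type and less RNA per cell cannot be told apart.

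**Figure D1:**
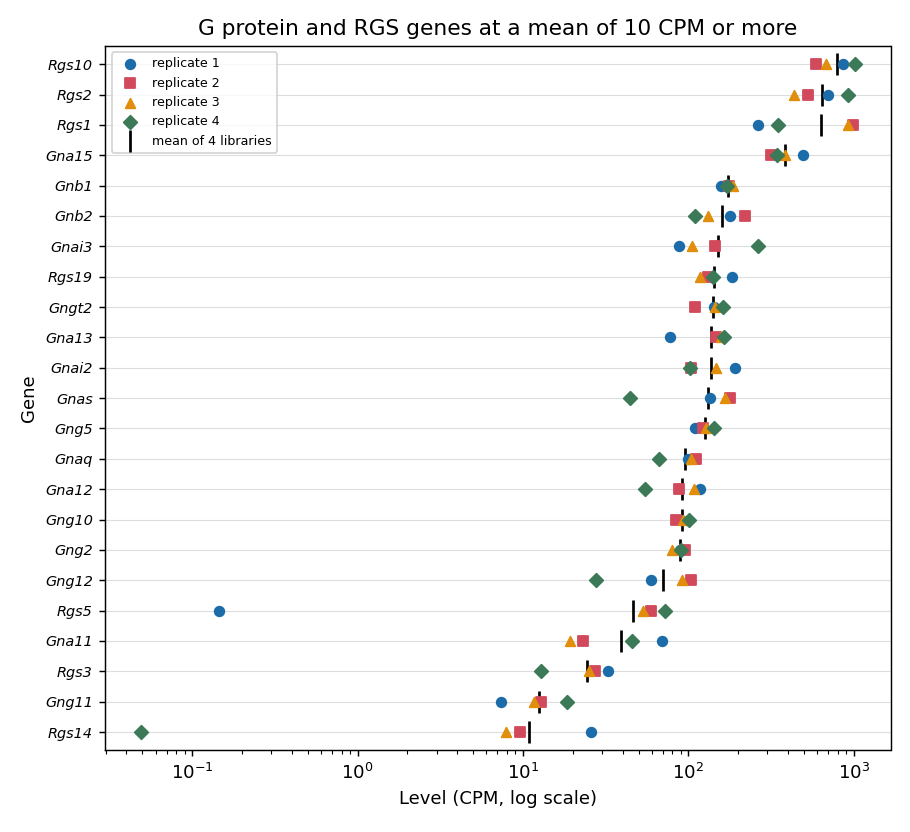
Level in CPM (log axis) of the 23 G protein and RGS genes whose mean is 10 CPM or higher, with 1 symbol per library and a bar at the mean of 4 libraries. Gnb1, Gng10 and Gng2 lie close together in the 4 libraries, Rgs1 splits into replicates 2 and 3 above replicates 1 and 4, and Rgs5 and Rgs14 each have 1 library far below the rest.

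Among the G alpha genes, the Gq/11 family led. Summed per kb of exon it made up 58.2% ± 5.14 of the G alpha pool (SD, n = 4), followed by the Gi/o family at 24.5% ± 5.38, the G12/13 family at 13.9% ± 2.26 and the Gs family at 3.42% ± 1.74. The order of the families was the same in each library. It rested on Gna15, which encodes the mouse G alpha 15 subunit of blood-forming cells, a Gq-class protein that many different receptors can engage. Gna15 alone took 57.4%, 47.4%, 51.6% and 47.9% of the pool in replicates 1 to 4. By counts without division by length the Gq/11 family made up 43.9%, Gi/o 25.5%, G12/13 19.5% and Gs 11.1%, so that the lead was smaller but the order held for these means.

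Gna15 stood at 494, 316, 383 and 344 CPM in replicates 1 to 4, a mean of 384 ± 78.0 CPM (SD, n = 4). Its highest library exceeded its lowest by 1.56-fold. The widely expressed Gq-class gene Gnaq stood at 99.7, 111, 103 and 66.2 CPM and was lower than Gna15 in each library, by a mean log2 ratio per kb of -3.55 ± 0.41 (SD, n = 4). Gna11, the third expressed gene of the class and the genomic neighbour of Gna15, stood at 69.0, 23.0, 19.4 and 45.8 CPM. Replicates 1 and 4 were the high ones for Gna11, and its order with Gnaq was not the same in every library. The last gene of the class, Gna14, had 0 counts in all 4 libraries.

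The Gi/o family was carried by Gnai2 and Gnai3, whose products link chemokine and nucleotide receptors to adenylyl cyclase. Gnai2 stood at 192, 104, 147 and 102 CPM, and Gnai3 at 87.7, 146, 105 and 264 CPM. Gnai2 was the higher gene per kb in replicates 1 and 3 and Gnai3 in replicates 2 and 4. The log2 ratio of Gnai2 over Gnai3 was 0.92, -0.70, 0.26 and -1.58, a mean of -0.27 ± 1.10 (SD, n = 4, p = 0.75 two-sided, by an exact sign-flip permutation test over libraries), so no order was found. Without replicate 4, in which Gnai3 was highest, that mean was 0.16. Gnai1 reached 6.02, 7.57 and 10.2 CPM in replicates 1 to 3 and 0 counts in replicate 4. The neuronal family member Gnao1 had counts in replicates 2 and 3 alone, at 8.11 and 2.23 CPM. The summed level of 10 neuron markers was 12.5, 21.3, 40.7 and 21.4 CPM. Camk2a, the 1 marker detected, had the highest mean of them, at 14.2 CPM. The other 9 summed to 0.146, 14.4, 24.2 and 0.147 CPM and so were higher in the 2 libraries with Gnao1 counts. Their part in the Gnao1 level was not tested. The transducin genes of the retina and of taste cells, Gnat1, Gnat2 and Gnat3, had 0 counts in every library.

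Gnas, which encodes the stimulatory subunit from a complex imprinted locus, stood at 136, 179 and 167 CPM in replicates 1 to 3 and at 44.1 CPM in replicate 4. Its unadjusted p against the abundance trend was 0.067 in edgeR's quasi-likelihood test, with an adjusted p of 0.944. Gnai2 exceeded Gnas per kb in each library, by a mean log2 ratio of 1.75 ± 0.86 (SD, n = 4). That ratio depends on the exon length used, since the exons of all annotated Gnas transcripts span 11186 bases and the longest transcript 3947. With the longest transcripts it was 1.02 and without division by length 0.18. The olfactory relative Gnal was at 0 counts in replicates 1 and 4 and reached at most 0.644 CPM.

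Both genes of the G12/13 family were present throughout. Gna12 stood at 118, 87.3, 108 and 54.8 CPM and Gna13 at 77.5, 146, 157 and 164 CPM. Gna12 was lowest and Gna13 highest in replicate 4, and Gna13 was lowest in replicate 1. Gna12 was the higher gene per kb in replicates 1, 2 and 3, with a mean log2 ratio of Gna13 over Gna12 of -0.34 ± 0.90 (SD, n = 4, p = 0.63 by the exact sign-flip permutation test). This mean changed sign without division by length, to 0.57, and without replicate 1, to 0.046.

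**Figure D2:**
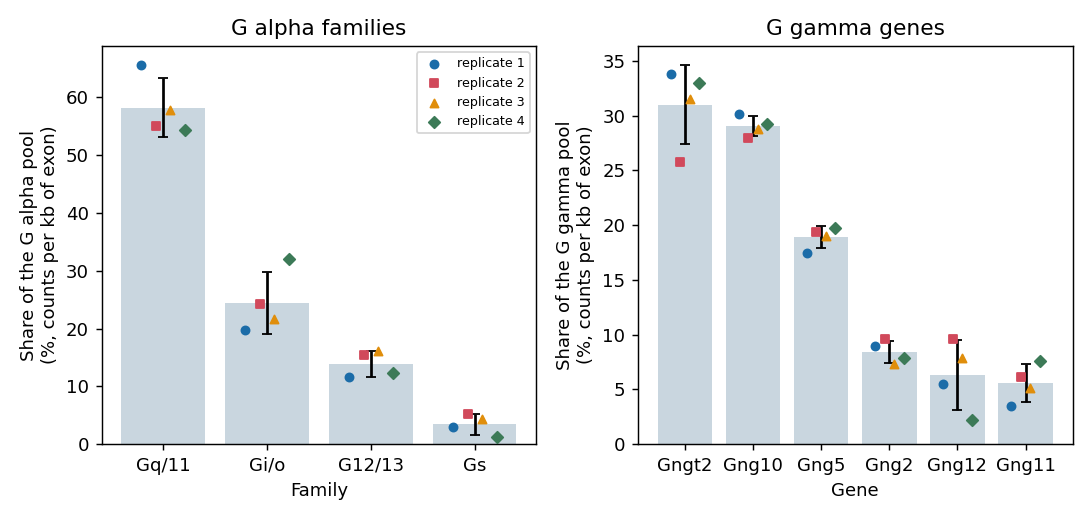
Share in percent of the G alpha pool taken by each family (left) and of the G gamma pool taken by each gene (right), both from counts per kb of exon. Bars are means, whiskers SD and symbols the 4 libraries. Gq/11 lies above 54% in each library, and Gng10 varies least among the G gamma genes shown.

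Of the 5 G beta genes, Gnb1 and Gnb2 supplied nearly the whole pool. Gnb1 stood at 157, 175, 187 and 171 CPM, a mean of 172 ± 12.3 CPM (SD, n = 4). Gnb2 stood at 178, 219, 131 and 110 CPM, with replicates 1 and 2 the high ones. Gnb1 and Gnb2 took 45.5% ± 7.85 and 51.0% ± 8.23 of the pool per kb, and the log2 ratio between them, -0.17 ± 0.48 (SD, n = 4), did not keep 1 sign over the libraries (p = 0.50, exact sign-flip permutation test). Gnb5, the atypical G beta that pairs with RGS proteins of the R7 family, stood at 12.5, 7.04, 8.03 and 8.60 CPM and took 3.27% ± 0.94. Gnb4 had counts in replicates 2 and 3 alone, at 1.11 and 5.84 CPM, and Gnb3 stayed under 1 CPM in each library.

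The 12 G gamma genes summed to 500, 539, 549 and 544 CPM in replicates 1 to 4. Per kb, Gngt2 took 31.0% ± 3.63 of the pool, Gng10 29.0% ± 0.90, Gng5 18.9% ± 1.02, Gng2 8.43% ± 1.00, Gng12 6.31% ± 3.18 and Gng11 5.63% ± 1.73 (SD, n = 4). Gngt2 is best known as the G gamma of cone photoreceptors, and it stood at 143, 110, 145 and 162 CPM here. Gngt1, the G gamma of rod photoreceptors, had 0 counts in all 4 libraries. Gngt2 shares 12.5% of its exon bases with Abi3 on the opposite strand, a gene at 218 ± 85.5 CPM (SD, n = 4). The strand setting of the counting is not given in the sources used here. It is thus unknown whether reads of the shared stretch were counted for Gngt2, for Abi3 or for neither. The same limit holds for Gng2, which shares 20.4% of its exon bases with Gm48283 on the opposite strand, for Gna12 with Amz1 (13.3%) and for Gnas with Gm20721 (13.1%) and Nespas (8.83%).

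Gng5 stood at 109, 122, 129 and 143 CPM, Gng10 at 89.7, 84.0, 92.6 and 101 CPM, and Gng2 at 88.8, 95.9, 79.3 and 90.5 CPM. None of the 3 differed by more than 1.31-fold between its highest and lowest library. Gng10 exceeded Gng5 per kb in each library, with a mean log2 ratio of Gng5 over Gng10 of -0.62 ± 0.12 (SD, n = 4), and Gng5 exceeded Gng2 by 1.17 ± 0.21. The order of Gng5 and Gng10 turned without division by length, to 0.45. Of the Gng10 exon bases, 72.0% also belong to the annotated gene Gm20503 on the same strand, which had 0 counts in all libraries. The counting mode is not given in the sources used here, and reads that fit 2 genes may have been set aside as ambiguous. The 0 counts of Gm20503 thus do not show that Gng10 kept the reads of the shared bases. The values of Gng10 per kb may be too low. Gng12 stood at 59.1, 104, 91.0 and 27.8 CPM and varied more, with replicate 4 lowest. Gng11 stood at 7.33, 12.9, 11.6 and 18.4 CPM, beside summed levels of 10 endothelial markers of 81.3, 159, 120 and 82.8 CPM, 2 of them detected. The single markers differed. Those 2, Cldn5 and Pecam1, were highest in replicate 4, at 29.1 and 45.7 CPM, as was Gng11. The other 8 were higher in replicates 2 and 3 than in replicates 1 and 4. The part of endothelial cells in the Gng11 level was not tested. Gng3 stayed between 1.02 and 2.47 CPM, and shares 24.2% of its exon bases with Bscl2 on the opposite strand. Gng4, Gng7, Gng8 and Gng13 had 0 counts in replicates 1 and 4.

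The RGS family held the most abundant of the genes examined, and 3 of its 21 members made up most of its pool. Per kb of exon Rgs10 took 56.0% ± 6.08, Rgs2 21.5% ± 4.08 and Rgs1 11.9% ± 8.15 (SD, n = 4), and Rgs19 followed with 7.92% ± 1.48. By counts, without division by length, the shares were 34.2% for Rgs10, 27.9% for Rgs2 and 27.2% for Rgs1.

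Rgs10, a small R12-family protein known to restrain inflammatory signalling in microglia, stood at 866, 594, 682 and 1015 CPM, a mean of 789 ± 188 CPM (SD, n = 4). Rgs2, an R4-family protein with a preference for Gq-class subunits, stood at 698, 528, 438 and 923 CPM, a mean of 647 ± 214 CPM. Both were higher in replicates 1 and 4 than in replicates 2 and 3, without overlap. How many of all genes split in this way was not counted, so the split is not shown to be particular to them. Per kb Rgs10 exceeded Rgs2 in each library, by a mean log2 ratio of 1.40 ± 0.23. The summed microglia markers were higher in replicates 1 and 4 too. Singly 8 of the 10 were, while Sall1 and Sparc were lowest in replicate 4. The sum of 10 neutrophil markers, 9 of them detected, was also higher there, at 1504, 296, 280 and 2397 CPM. Singly 8 of these were, while Elane was lowest in replicate 4 and Ly6g had 0 counts in replicates 3 and 4. The sum of 9 B cell markers, 3 of them detected and Ms4a1 at 0 in all, was 768, 318, 375 and 765 CPM. Singly 6 of these were higher in replicates 1 and 4, and Ebf1 went the other way. The part of such cells in the Rgs10 and Rgs2 levels was not tested.

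Rgs1, an R4-family protein known for limiting chemokine responses of leukocytes, had the opposite pattern. It stood at 265, 990, 922 and 350 CPM, so that replicates 2 and 3 lay far above replicates 1 and 4, and its highest library exceeded its lowest by 3.73-fold. The log2 ratio of Rgs2 over Rgs1 per kb was accordingly 2.33 and 2.34 in replicates 1 and 4 and 0.03 and -0.14 in replicates 2 and 3 (p = 0.38, exact sign-flip permutation test). Of the 23 genes tested, Rgs1 alone had a raw p for its spread between libraries below 0.05, at 0.037, but its adjusted p was 0.944 (edgeR's quasi-likelihood test). Its dispersion lay 2.88 above the trend on the log2 scale.

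Immediate early genes encode transcription factors and other quickly induced proteins. Of 20 listed, 19 had both replicates 2 and 3 above replicates 1 and 4, as Rgs1 did. The exception was Egr3 at 5.92, 2.66, 6.57 and 0 CPM. The share of all genes with this split was not counted, and replicates 2 and 3 were the closest pair of libraries over all genes. The split is thus not shown to be particular to these genes or to Rgs1. The summed level of the 20 was 5470, 58923, 51535 and 5795 CPM in replicates 1 to 4. Of these genes 17 were detected and tested. All 17 had an unadjusted p under 0.05 in edgeR's quasi-likelihood test, against 4.3% of all genes tested, and none had an adjusted p under 0.05. The median of their dispersions over the trend was 4.06 on the log2 scale, against -0.08 over all genes tested. The list was chosen with earlier results of these data known, so these values are no test of it. The summed level of 8 oligodendrocyte markers, all 8 of them detected, was likewise higher in replicates 2 and 3, at 495, 1854, 1892 and 593 CPM. The part of either in the Rgs1 level was not tested.

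**Figure D3:**
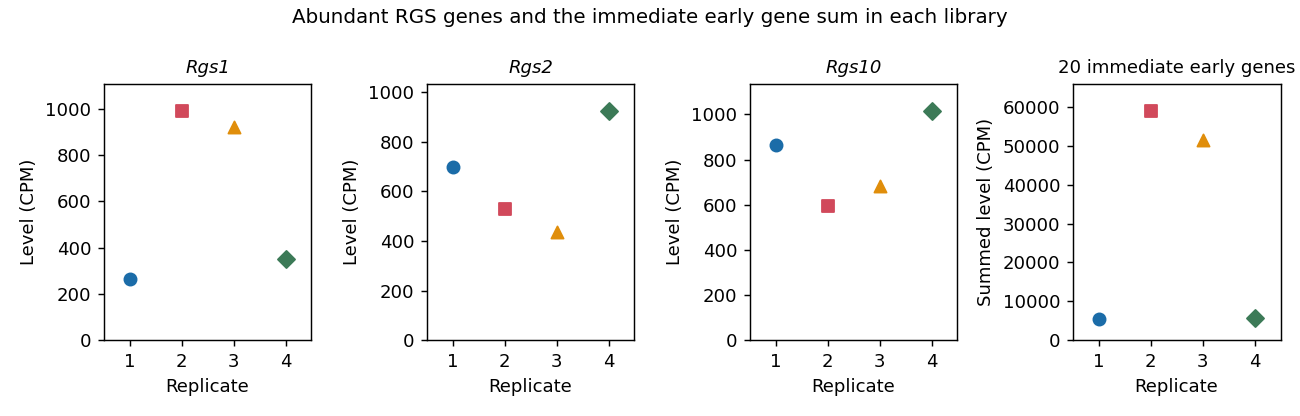
Levels of Rgs1, Rgs2 and Rgs10 in CPM and the summed CPM of 20 immediate early genes, by replicate, each panel with its own axis from 0. Rgs1 and the immediate early genes are high in replicates 2 and 3, and Rgs2 and Rgs10 in replicates 1 and 4.

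Rgs19, an RZ-family protein that acts on Gi-class subunits, stood at 183, 132, 117 and 140 CPM, and Rgs10 exceeded it per kb in each library by a mean log2 ratio of 2.83 ± 0.31 (SD, n = 4). Rgs3, another R4-family gene, stood at 32.9, 27.1, 24.9 and 12.9 CPM. Both Rgs19 and Rgs3 were highest in replicate 1. Rgs14, an R12-family protein that also binds inactive Gi-class subunits, stood at 25.6, 9.66 and 7.86 CPM in replicates 1 to 3 and at 0.0491 CPM, a single read, in replicate 4. The summed level of 10 T and NK cell markers, none of them detected by this rule, was 26.0, 29.9, 33.1 and 1.33 CPM. Il7r alone gave 26.0, 21.2, 23.3 and 0.196 CPM of it, and the other 9 summed to 0.0485, 8.73, 9.87 and 1.13 CPM, lowest in replicate 1, where Rgs14 was highest. The part of such cells in the Rgs14 level was not tested.

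Rgs5, best known as a marker of pericytes, the mural cells of capillaries, was all but absent from 1 library. Its counts were 3, 1345, 1235 and 1472 in replicates 1 to 4, or 0.146, 59.6, 53.0 and 72.3 CPM. The summed level of 10 mural markers was 17.4, 58.4, 61.5 and 99.5 CPM, and Vtn, the only one detected, supplied 15.8, 29.1, 30.4 and 61.2 CPM of it. The other 9 summed to 1.55, 29.3, 31.1 and 38.3 CPM, so that replicate 1 was lowest and replicate 4 highest, as for Rgs5. The single markers differed. Vtn, Acta2, Tagln and Higd1b were highest in replicate 4, at 61.2, 28.5, 5.40 and 4.17 CPM, while Kcnj8, Abcc9, Cspg4 and Myh11 had 0 counts there, Pdgfrb 0.0491 CPM and Anpep 0.0982 CPM. The part of mural cells in the Rgs5 level was not tested.

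**Figure D4:**
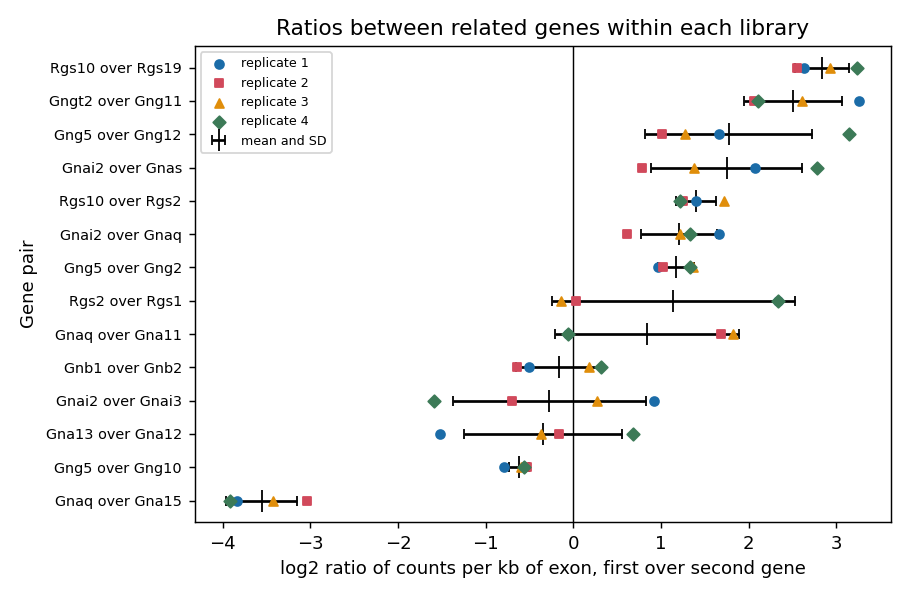
Log2 ratio of counts per kb of exon, first gene over second, for 14 pairs of related genes, with 1 symbol per library and the mean and SD over 4 libraries. Pairs whose symbols all lie on 1 side of 0 kept their order, and Gnai2 over Gnai3 has 2 libraries on each side of 0.

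In all, 16 pairs of genes of related function were compared. The first gene was higher in every library in 9 pairs, the second in 2, and 5 pairs had no single order. The 11 pairs with 1 order each reached p = 0.125, the smallest that the exact two-sided permutation of signs can give with 4 libraries, and an adjusted p of 0.18 (exact permutation test with Benjamini-Hochberg adjustment over the 16), so the design cannot reach 0.05. Among the 9 were Gnai2 over Gnaq, by 1.21 ± 0.44, Gng5 over Gng12, by 1.77 ± 0.95, and Gngt2 over Gng11, by 2.51 ± 0.56 on the log2 scale (SD, n = 4). Without division by length 2 of them lost their single order, Gnai2 over Gnaq at a mean of 0.49 and Gnai2 over Gnas at 0.18, and Gnaq over Gna11 gained one at 1.44. Gnb1 over Gnb4 and Rgs19 over Rgs14 belong to them too. Gnb4 had 0 counts in 2 libraries and Rgs14 had 1 count in replicate 4, without which the mean for Rgs19 over Rgs14 was 4.43 ± 0.58 (SD, n = 3).

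The remaining genes had lower means, and several had counts in some libraries and few or none in others. Rgs4, a neuronal R4-family gene, stood at 6.75, 11.4 and 12.1 CPM in replicates 1 to 3 and at 0.196 CPM in replicate 4. Rgs18, known from platelets and megakaryocytes, stood at 8.99 and 11.8 CPM in replicates 2 and 3, at 0.243 CPM in replicate 1 and at 0 counts in replicate 4. The summed level of 8 platelet markers was 146, 132, 105 and 83.8 CPM, with 3 of the 8 detected and Gp6 at 0 in all. Its members differed, since Pf4 stood at 22.6, 71.0, 67.6 and 31.9 CPM, higher in replicates 2 and 3 like Rgs18, and the other 7 summed to 123, 61.3, 37.6 and 51.9 CPM. The part of platelets in the Rgs18 level was not tested. Rgs12 ranged from 0.295 to 6.50 CPM. Rgs7bp, the membrane anchor of R7-family proteins, stood at 14.1, 4.65, 13.6 and 0.0491 CPM, while of the R7 family itself Rgs6 and Rgs9 had 0 counts throughout and Rgs7 and Rgs11 had counts in replicate 2 alone.

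Of the 47 genes with a count, 29 had one in every library. Another 15 had 0 counts in replicates 1 and 4 and a count in replicate 2 or 3, against 24% of all genes with a count. They were Gnal, Gnao1, Gnaz, Gnb4, Gng2-ps1, Gng4, Gng7, Gng8, Gng13, Rgs7, Rgs8, Rgs11, Rgs16, Rgs17 and Rgs20, and none exceeded 8.11 CPM in any library. The number of genes with a count was 32, 45, 42 and 29 in replicates 1 to 4. A count of 0 there is not taken as absence.

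**Figure D5:**
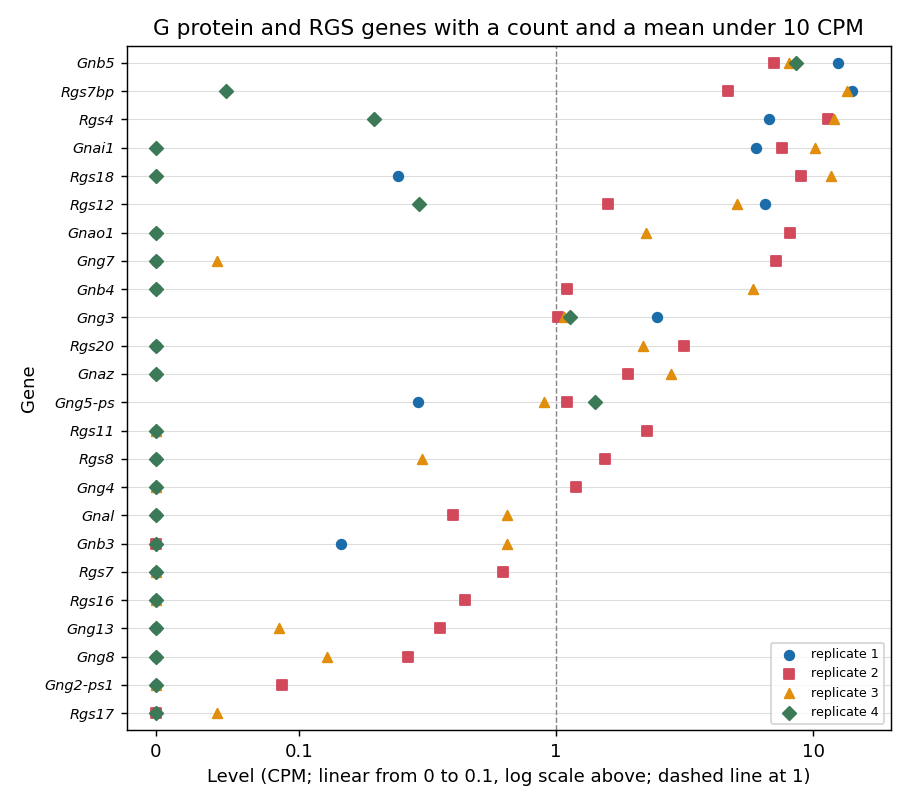
Level in CPM of the 24 genes with a count but a mean under 10 CPM, 1 symbol per library, on an axis that is linear from 0 to 0.1 and logarithmic above, with a dashed line at 1 CPM. Symbols at 0 lie over each other, and most genes below Gng3 have replicates 1 and 4 at 0.

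The 12 rows with 0 counts in all 4 libraries were Gna14, Gnat1, Gnat2, Gnat3, Gngt1, Rgs6, Rgs9, Rgs9bp, Rgs13, Rgs21, Rgs22 and the antisense transcript Gnasas1. Several lay next to expressed relatives. In the RefSeq gene order of GRCm38.p6, 13 pairs of these genes were neighbours, with at most 1 protein-coding gene between them. Rgs2, Rgs13, Rgs1, Rgs21 and Rgs18 followed each other, and of these Rgs2 and Rgs1 stood at means of 647 and 632 CPM, Rgs18 at 5.25 CPM and Rgs13 and Rgs21 at 0 counts. The same held for Gngt1 beside Gng11, Gna14 beside Gnaq, Gnat2 beside Gnai3 and Gnat3 beside Gnai1, where the first of each pair had 0 counts.

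Other genes of the pathway were counted from lists. Of 10 genes for assembly and nucleotide exchange 6 were detected, with the highest CPM, not divided by length, for Gpsm3, a protein that binds inactive G alpha, at 94.2 ± 19.4 CPM, the chaperonin subunit Cct2 at 61.6 ± 19.2 and Ric8a, a chaperone of G alpha, at 61.2 ± 10.5 CPM (SD, n = 4). Of 8 measured receptor kinases and arrestins 3 were, namely Arrb2 at 416 ± 82.8, Grk2 at 84.8 ± 27.0 and Arrb1 at 33.4 ± 22.1 CPM. Of 14 effectors 7 were. These included Pik3cg, the phosphoinositide kinase that G beta gamma activates, at 225 ± 29.3 CPM, its regulatory subunits Pik3r6 and Pik3r5 at 64.1 ± 28.7 and 45.5 ± 12.6 CPM, and the Rac exchange factor Prex1 at 99.4 ± 40.0 CPM.

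Receptors were listed in 3 groups by G alpha family. Of 19 receptors listed as Gi-coupled 13 were detected, and the list's summed level was 24595, 16308, 15794 and 23303 CPM in replicates 1 to 4. P2ry12 was at 7209 ± 1921, Cx3cr1 at 4605 ± 1094, Gpr34 at 3127 ± 1456 and P2ry13 at 2419 ± 1052 CPM (SD, n = 4). Of 12 receptors listed for Gq/11 or G12/13 5 were detected, and the list summed to 1488, 1160, 1195 and 1859 CPM. The nucleotide receptor P2ry6 stood at 393 ± 62.6, Lpar6 at 332 ± 169 and the platelet-activating factor receptor Ptafr at 195 ± 36.9 CPM. Gpr183, an oxysterol receptor at 488 ± 118 CPM and the highest of that list in CPM, is known to signal mainly through Gi. Without it, 4 of 11 were detected and the sum was 1011, 773, 762 and 1202 CPM. Of 9 Gs-coupled receptors 3 were detected. No gene of these lists passed the adjusted test of spread between libraries.

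The spread of each gene between libraries was set against the trend at its abundance. Of the 59 genes 23 passed the filter on low counts and were tested, which leaves out Rgs5, Rgs14 and every gene at 0 in some library. None of the 23 had an adjusted p under 0.05 in edgeR's quasi-likelihood test, and neither had any of the 9075 genes tested (0%). The lowest adjusted p over all genes in that test was 0.944, so a lack of calls does not show that a gene was steady. Of the 23, 1 had an unadjusted p under 0.05 against 4.3% of all. DESeq2 called no dispersion outlier among them or among all genes (0%). Above the trend lay 11 of the 23, against 48.3% of all, and the median of the log2 dispersion over the trend was -0.35 against -0.08. The median coefficient of variation was 30.4% for the 23 genes and 38.6% for all genes tested. Gng10, Gng2, Gng5 and Gnb1 lay farthest below the trend, with coefficients of variation of 7.59%, 7.81%, 11.3% and 7.15%.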

How the data were processed

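The authors deposited raw read counts per gene symbol, 1 file per library. Each file has 56832 gene rows and then 5 closing rows that tally reads without a gene. The latter held 20.8% ± 1.28 of the reads (SD, n = 4) and were left out. Alignment and counting tools, per the submitters' processing notes, were STAR 2.7.10a, SAMtools 1.16.1 and HTSeq 0.11.2, on GRCm39. The annotation, strand setting and read filters were not given in the sources used here. Per the labels' protocols, RNA of sorted cells was amplified with a low-input kit.

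CPM used the reads assigned to genes. Exon lengths were the union of exons in GENCODE's GRCm38 annotation and were found by symbol for 89.1% of rows, with 1 of the 59 genes unmatched. Promoters were matched by symbol for 41 genes. Pairs were compared as the log2 ratio of (count + 0.5) per kb within a library, tested two-sided by an exact permutation of signs over libraries. Spread was tested with edgeR 4.0.16 (R 4.3.3) on TMM-scaled counts that passed filterByExpr with a minimum count of 10, as an upper-tail F test of each gene's quasi-dispersion against the trend, with Benjamini-Hochberg adjustment over 9075 genes. The script was tested on simulated counts with a common dispersion for all genes, which does not show how well it finds spread in these data. DESeq2 1.42.0, other filters and lengths, a pseudocount of 5 and leaving out each library were alternatives. Python 3.11.15, scipy 1.17.1 and matplotlib 3.10.9 did the rest.

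The genes, 7 pathway lists, 13 marker lists and 16 pairs were chosen with earlier results of these data known. Named were all genes whose mean reached 10 CPM, those passing the spread test, those of each pair and up to 4 of each list, with others by count and range. Genes named outside this rule were chosen after their values were seen: those at a lower mean or at 0 counts, the neighbouring and overlapping genes, and single markers. Nothing says that the libraries came from separate animals, so p-values reflect the spread between libraries alone, and that spread may be technical.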

Additional observations from a re-analysis of the deposited data

Results flagged for a closer look

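In 1 of 43 groups of 4 library values checked, 1 value lay farther from the rest than Dixon's 95% limit allows, and chance alone marks about 1 in 20 groups. It was the log2 ratio of Rgs19 over Rgs14 per kb in replicate 4, at 11.82, against 3.76, 4.69 and 4.82 in replicates 1 to 3. In replicate 4 Rgs14 had 1 read and Rgs19 had 2857. Without the pseudocount the log2 ratio there was 12.41, and the exact Poisson interval (95%) of a single read spans 9.93 to 17.71, which covers counting error only.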

How the results depend on the processing

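No paired analysis was possible because there is only 1 group of libraries. The number of G protein and RGS genes called more variable than the trend was 0 under each alternative run (DESeq2 size factors, DESeq2 dispersion outliers, no filter on low counts, and without each library, 0 to 0). No gene of the whole table was called in these runs either, so the 0 does not show that the spread of these genes was small. For the single genes tested the adjusted p lay between 0.826 and 1.00 over all alternatives. The number at 1 CPM in every library was 23 with TMM scaling and 23 to 28 when 1 library was left out, the highest without replicate 4. The number of pairs with 1 order was 10 to 12 over all alternatives, not always the same pairs, and 11 to 12 when 1 library was left out. Without division by length the Gq/11 share moved to 43.9%, the G12/13 share to 19.5% and the Gs share to 11.1%, and with the longest transcript the Gs share moved to 8.03%. These values differ by construction, since the exon length used differs. Leaving out 1 library gave 55.7% to 59.5% for Gq/11, 21.9% to 26.0% for Gi/o, 13.1% to 14.7% for G12/13 and 2.84% to 4.16% for Gs. The mean log2 ratio changed sign in 6 of 112 recomputed values: Gnai2 over Gnai3 to 0.50 with the longest transcript and -0.67 to 0.16 when 1 library was left out (0.16 without replicate 4), Gna13 over Gna12 to 0.57 without division by length and -0.68 to 0.046 when 1 library was left out (0.046 without replicate 1), Gnb1 over Gnb2 to 0.16 and Gng5 over Gng10 to 0.45 without division by length. Exon lengths from GRCm38 were used for reads aligned to GRCm39, and transcripts in use were not measured. Depth limits the low genes, whose counts of 0 allow up to 0.147 CPM.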
